A study of Arabidopsis thaliana with 20 samples.

Results

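Expression was measured for 10 Arabidopsis thaliana genes of water-conducting xylem and its thickened secondary wall, out of 37336 loci counted. They encode the xylem cysteine proteases XCP1 (AT4G35350) and XCP2 (AT1G20850), and the cellulose synthases CESA4 (AT5G44030), CESA7 (AT5G17420) and CESA8 (AT4G18780). The others are the xylan glycosyltransferase IRX9 (AT2G37090), the laccases LAC4 (AT2G38080) and LAC17 (AT5G60020), the pinoresinol reductase PRR1 (AT1G32100) and a class III peroxidase, AT5G51890. The genes were selected on their lower counts at the later age, so that difference is described below and not tested. All plants were of ecotype Col-0, and rosette leaves were taken from wild type and from the snrk2.4/snrk2.10 double mutant at 25 and at 45 days after sowing (DAS). Each of the 4 groups held 5 libraries made by 3' RNA-seq, which counts reads from the ends of polyadenylated transcripts. The controls carry neither mutation, and no group received a treatment. The labels do not say whether a library stands for a single plant or a pool, so p-values measure the spread between these libraries.

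Xylem vessel cells lay down a secondary wall of cellulose, xylan and lignin, then kill and empty themselves to leave a hollow tube. In Arabidopsis, NAC-domain factors of the VND family switch this programme on, partly through the MYB factors MYB46 and MYB83. CESA4, CESA7 and CESA8 form the cellulose synthase complex of the secondary wall, IRX9 builds the xylan backbone, and laccases and peroxidases couple monolignols into lignin. XCP1 and XCP2 break down the cell contents as the vessel dies.

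Library totals ran from 615317 to 2343212 counts, and those at 45 DAS (615317 to 1827404) reached less high than those at 25 DAS (985639 to 2343212). SNRK2.4, a target of the mutations, was at 37.3 ± 8.63 CPM (counts relative to a common library total) in young wild type and 4.92 ± 2.48 CPM in the young mutant (SD, n = 5). At 45 DAS it was at 80 ± 5.39 and 2.67 ± 1.72 CPM. SNRK2.10, the other target, was at 62.9 ± 11.3 and 47 ± 6.01 CPM in young leaves and at 75.1 ± 5.75 and 31.4 ± 4.85 CPM in older ones. A transcript end can lie outside the disrupted part of a gene, so these levels do not show whether a working kinase was made.

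The 250 bases upstream of each gene were read from the TAIR10.1 genome with its RefSeq annotation, to show which letters known from xylem promoters they hold. The first set searched for was the tracheary element-regulating element (TERE), an element first described upstream of genes of vessel cells, on both strands. It occurred upstream of XCP1 and CESA4, that is in 2 of the 10 genes, against 0.368% of the 27443 promoters of this length. The windows of XCP1 (chr4:16810232-16810481, plus strand) and XCP2 (chr1:7251861-7252110, plus strand) are shown together because the 2 proteases are close relatives and only the former holds a TERE match, in capitals, 75 to 65 bases before the annotated gene start.
XCP1: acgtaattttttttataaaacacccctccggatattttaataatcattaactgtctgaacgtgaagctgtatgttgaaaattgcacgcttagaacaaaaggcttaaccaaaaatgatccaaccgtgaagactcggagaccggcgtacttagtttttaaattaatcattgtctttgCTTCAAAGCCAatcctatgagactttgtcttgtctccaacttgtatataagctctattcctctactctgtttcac
XCP2: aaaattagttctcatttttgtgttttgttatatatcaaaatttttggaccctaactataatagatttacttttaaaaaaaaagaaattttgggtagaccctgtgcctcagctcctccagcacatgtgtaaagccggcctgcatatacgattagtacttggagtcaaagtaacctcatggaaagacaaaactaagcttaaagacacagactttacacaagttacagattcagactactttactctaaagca
For CESA4 only the match and its surroundings are given (chr5:17714360-17714389, plus strand), since its whole window, the match included, lies inside the neighbouring gene AT5G44020. The capitals mark the TERE match, which ends 10 bases before the gene start.
CESA4: tacataataaCTTGAAAGCTActctaagtt
The second set was 8 heptamers known as binding letters of MYB46 and its relatives, ACC followed by A or T, then A, then A or C, then C or T, also on both strands. At least 1 of them lay upstream of 3 of the 10 genes, CESA4, LAC17 and PRR1, against 29.4% of all promoters. A subset of them, the AC elements known from lignin genes (ACC followed by TACC or AACC or TAAC), lay upstream of LAC17 and PRR1, against 6.12% of all promoters. The windows of these 2 genes are shown with the matches in capitals (LAC17 at chr5:24167746-24167995 on the plus strand, PRR1 at chr1:11548017-11548266 on the minus strand). In PRR1 the second match reads ACCTAAC on the opposite strand.
LAC17: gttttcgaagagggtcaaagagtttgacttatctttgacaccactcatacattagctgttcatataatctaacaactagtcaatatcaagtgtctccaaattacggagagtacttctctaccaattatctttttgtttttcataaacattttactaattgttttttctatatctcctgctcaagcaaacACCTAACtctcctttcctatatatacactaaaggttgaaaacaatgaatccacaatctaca
PRR1: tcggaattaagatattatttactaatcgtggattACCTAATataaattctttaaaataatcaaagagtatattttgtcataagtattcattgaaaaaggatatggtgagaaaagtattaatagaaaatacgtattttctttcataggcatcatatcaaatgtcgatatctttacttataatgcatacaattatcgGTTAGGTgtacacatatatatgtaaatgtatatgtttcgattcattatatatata
The LAC17 window lies within AT5G60022, a locus on the opposite strand with 1 count over all libraries. A match is a description of letters, and their use was not measured here.

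At 25 DAS every one of the 10 genes was detected in every library of both genotypes, and at 45 DAS nearly all of their counts were gone. Summed over the genes, wild type gave 314, 432, 260, 354 and 191 counts at 25 DAS and 5, 0, 2, 1 and 1 counts at 45 DAS. The mutant gave 321, 224, 208, 327 and 384 counts, and then 6, 17, 2, 1 and 0 counts. In both genotypes every younger library stood far above every older one. For young leaves the summed level was 227 ± 18.1 CPM (wild type) and 227 ± 29.4 CPM (mutant), and for older leaves 1.62 ± 1.63 and 2.56 ± 2.91 CPM (SD, n = 5). Counts were scaled by library totals and TMM factors (trimmed mean of M values). On that scale, 1551 against 9 counts in wild type makes the younger level 147 times the older (95% interval 77.1 to 322). For mutant leaves, 1464 against 26 counts is a ratio of 68.6 (46.6 to 105), or 139 without mutant replicate 2 at 45 DAS, which held 17 of the 26 counts. These intervals cover counting error only, not the choice of scaling. The TMM factors were 0.748 to 0.831 in young and 1.13 to 1.32 in older libraries, so these ratios would be smaller on plain library totals. The floors below, written as at least so many fold lower, bound the older count only and take the young count as exact. They leave out the counting error of the young count. The lower limits of exact binomial intervals, which are not printed with them, lie under these floors. In whole leaves, fewer xylem cells and less RNA per cell cannot be told apart.

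**Figure D1:**
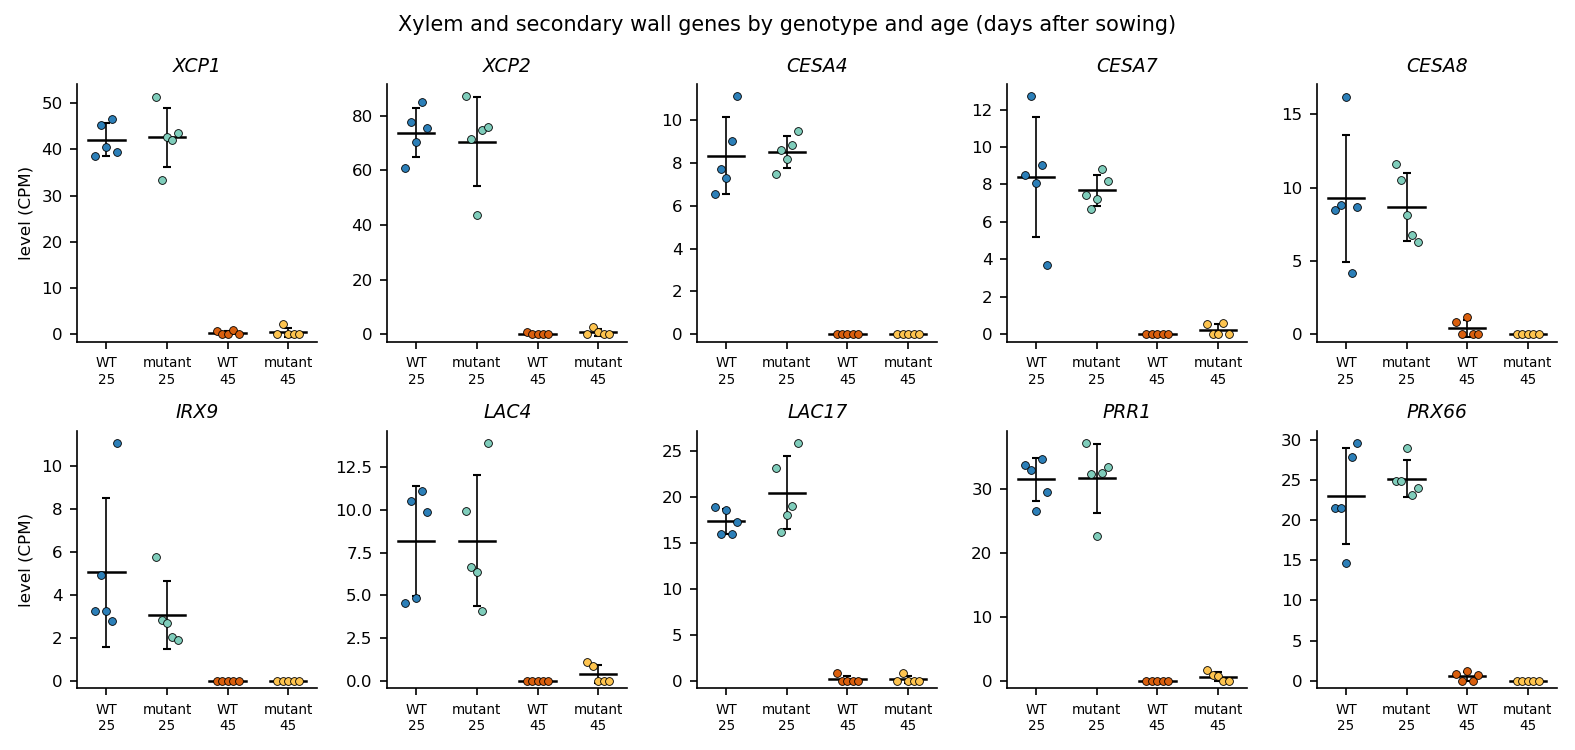
Levels of the 10 genes (CPM, linear axis from 0; PRX66 is the peroxidase AT5G51890) in each library of wild type (WT) and mutant at 25 and 45 days after sowing; points are libraries, horizontal lines are group means and error bars are SDs (n = 5). In every panel all 10 younger libraries lie above all 10 older ones, and the genotypes overlap at 25 days.

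The cysteine proteases had the highest counts of the set. XCP2 gave 93, 141, 87, 122 and 61 counts in wild type at 25 DAS and 1, 0, 0, 0 and 0 at 45 DAS. In the mutant it gave 105, 75, 48, 110 and 120 counts, and then 0, 6, 1, 0 and 0. A single older library, mutant replicate 2, held 6 of the 7 late counts. The younger level was 429 times the older in wild type (76.7 to 16989) and 79.7 times in mutant leaves (38.4 to 199). XCP1 gave 59, 82, 50, 67 and 32 counts in young wild type and 62, 35, 47, 62 and 69 in the young mutant. At 45 DAS it had 2 counts in wild type, in replicates 1 and 4, and 5 in the mutant, all in replicate 2. The ratio was 124 (33.9 to 1025) and 67 (28.4 to 208). The last 500 bases of the XCP1 and XCP2 transcripts align over 190 bases at 82.1% identity, so their reads differ in many letters.

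The 3 cellulose synthases of the secondary wall disappeared together. CESA4 gave 10, 14, 9, 13 and 9 counts in young wild type, 9, 9, 9, 13 and 15 in the young mutant, and 0 in all 10 older libraries. Against a floor of 3 counts over the group, it was at least 15.6-fold lower in wild type and at least 22.3-fold lower in the mutant at 45 DAS. CESA4 shares 17 bases with AT5G44020 on the same strand, which had 4873 counts over all libraries against 110 for CESA4. The level of AT5G44020 went from 326 ± 26.5 CPM at 25 DAS to 5.68 ± 7.35 CPM at 45 DAS in wild type. Mutant libraries held 402 ± 74.9 CPM of it when young and 5.47 ± 6.94 CPM when older. Reads of the shared bases cannot be assigned with certainty, and their part in the CESA4 counts was not tested. CESA7 gave 13, 23, 10, 13 and 3 counts in young wild type and 9, 7, 8, 13 and 13 in the young mutant. It had no count in older wild type and 2 in the older mutant. CESA8 gave 13, 16, 20, 6 and 7 counts in young wild type and 14, 11, 9, 10 and 10 in the young mutant. It had 2 counts in older wild type and none in the older mutant. The lowest young library, wild-type replicate 5 for CESA7 with 3 counts, still exceeded each older one. IRX9, which extends the xylan backbone, had the fewest counts. They were 5, 9, 4, 4 and 9 in young wild type and 7, 3, 3, 3 and 3 in the young mutant, and 0 at 45 DAS. That made it at least 8.8-fold lower in older wild type. CESA4 and CESA7 share 65 and 66 bases with loci on the opposite strand, which had 114 and 198 counts over all libraries.

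The genes that polymerise lignin followed the same course. LAC4 gave 7, 19, 6, 16 and 8 counts in young wild type and 12, 7, 7, 6 and 22 in the young mutant, so that libraries of 1 group differed among themselves. At 45 DAS wild type had none and mutant replicates 1 and 2 had 2 each. LAC17 was steadier, with 29, 29, 23, 23 and 14 counts in young wild type and 28, 17, 20, 28 and 41 in the young mutant, and 1 and 2 counts at 45 DAS. The peroxidase AT5G51890 gave 33, 39, 18, 40 and 24 counts in young wild type and 30, 26, 32, 34 and 38 in the young mutant. At 45 DAS it had 3 counts in wild type, 1 each in replicates 1, 3 and 5, and none in the mutant, where it was at least 64.9-fold lower. AT5G51890 shares 118 bases with AT5G51880 on the opposite strand, and the use of strand in counting is not given. AT5G51880 kept 191 and 211 counts at 45 DAS in wild type and mutant, and reads of the shared bases cannot be assigned with certainty.

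PRR1 reduces pinoresinol, a dimer of coniferyl alcohol, and so draws on the same monolignols as lignin does. It gave 52, 60, 33, 50 and 24 counts in young wild type and none in the 5 older libraries, where it was at least 62.2-fold lower. In the mutant it gave 45, 34, 25, 48 and 53 counts and then 3, 2, 1, 0 and 0, a ratio of 41.6 (18.8 to 115). The older mutant libraries 1 to 3 were thus the only older ones with a count of PRR1.

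All 10 genes kept at most 5% of their level at 45 DAS in each genotype, with the most left for CESA8 in wild type (4.36%) and LAC4 in the mutant (4.76%). The medians were 0.111% (wild type) and 0.898% (mutant). Among loci with at least 3 CPM at 25 DAS, 5.36% of 15253 in wild type and 4.34% of 15345 in the mutant kept no more than that share. All 10 also had every younger library above every older one, which held for 31.5% and 32.9% of those loci. The genes were chosen for this contrast, so nothing is read from their counts against that background.

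Whether the mutant differs from wild type was compared at each age. At 25 DAS no difference between the genotypes was detected for any of the 10 genes. A filter on low counts passed 6 of the 10 genes, XCP1, XCP2, LAC4, LAC17, PRR1 and AT5G51890. None of the 6 differed between mutant and wild type in the edgeR quasi-likelihood test (adjusted p at least 0.621), and 3.16% of 14503 tested genes did. None had an unadjusted p under 0.05 either, and DESeq2 called none. The log2 fold change of mutant against wild type was 0.02 for XCP1 (95% interval -0.40 to 0.44) and -0.06 for XCP2 (-0.47 to 0.35). For PRR1 it was -0.00 (-0.38 to 0.38) and for AT5G51890 0.14 (-0.28 to 0.56). The signs of XCP1, XCP2, PRR1 and LAC4 turned under some alternatives, all within these intervals. LAC17 had 17.4 ± 1.4 CPM in wild type against 20.5 ± 3.96 CPM, a log2 fold change of 0.25 (-0.19 to 0.70). LAC4 had the widest interval of the 6, -0.75 to 0.80 around 0.03.

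The 4 genes under the filter, the cellulose synthases and IRX9, were compared in a fit of all genes with at least 1 count. CESA4 differed by 0.05 on the log2 scale (-0.59 to 0.69), CESA7 by -0.21 (-0.87 to 0.46) and CESA8 by -0.13 (-0.83 to 0.57). IRX9 had 5.07 ± 3.48 CPM in wild type against 3.06 ± 1.59 CPM, a log2 fold change of -0.65 (-1.65 to 0.36; adjusted p 0.688, edgeR). Its wild-type mean included 11.1 CPM in replicate 5, against 2.78 to 4.96 CPM in the others. No interval of the 10 genes left out 0, and differences smaller than those intervals could not be detected at this depth.

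**Figure D2:**
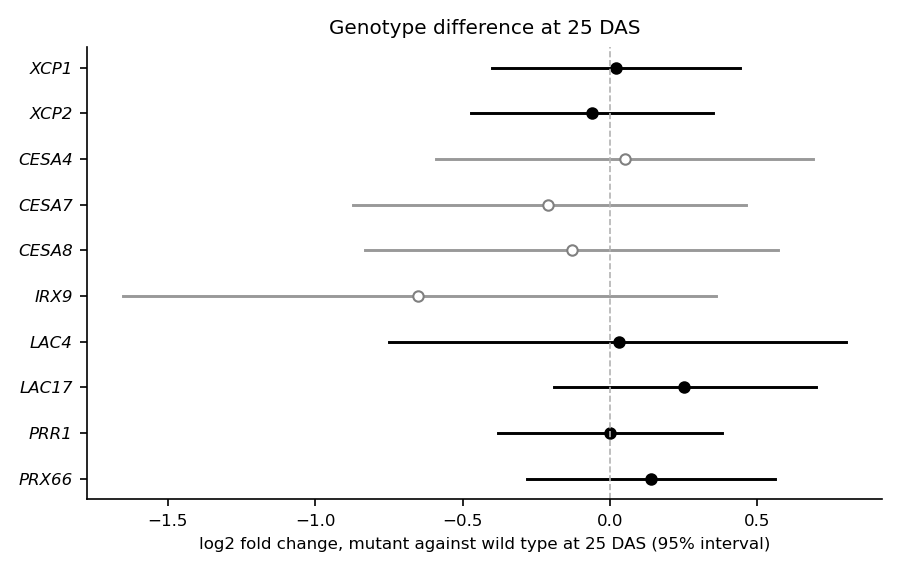
Log2 fold change of mutant against wild type at 25 days after sowing (x axis) for each of the 10 genes, with 95% intervals (5 libraries per group). Filled points come from the fit of the 14503 genes that passed the filter and open points from the fit of all genes with at least 1 count; every interval spans 0, and that of IRX9 is the widest.

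At 45 DAS the genotypes could be compared only near the limit of detection. None of the 6 genes passed the threshold (9.93% of 14503 genes did, edgeR), while 2 had an unadjusted p under 0.05, and DESeq2 called none and had 1 gene under that unadjusted p. The pair was PRR1, with 0 counts in wild type and 6 in the mutant (adjusted p 0.0769), and AT5G51890, with 3 counts in wild type and 0 in the mutant (adjusted p 0.136). The pair point in opposite directions. The age change of the 6 genes also did not differ between the genotypes past the threshold (3.21% of all genes did), with the same pair under an unadjusted p of 0.05 and DESeq2 calling none. Since the genes were chosen for their age change, that last comparison is a description.

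Of the 26 late counts in the mutant, 17 came from replicate 2, spread over 5 of the genes: XCP1, XCP2, LAC4, LAC17 and PRR1. This library had the largest total at 45 DAS, 1827404 counts. With depth accounted for, its summed level of the 10 genes was 7.26 CPM, against 0 to 3.29 CPM in the other older mutant libraries. Among those libraries it ranked first for the marker lists of mesophyll, epidermis, guard cells and procambium. The lead was narrow for epidermis (263 against 261 CPM), guard cells (56 against 55.2 CPM) and procambium (86.7 against 84.7 CPM). It ranked second for phloem and dividing cells. The part of depth and of these cell types in the late counts was not tested.

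Among the 10 young libraries, deviations of the 6 tested genes from their group means went together only in part. Over the 15 pairs of genes, Pearson's r had a median of 0.28 and ranged from -0.29, for LAC17 and AT5G51890, to 0.81, for XCP2 and PRR1. XCP1 and XCP2 gave 0.35. The points share the depth of their libraries, so these values are a description. Of 10788 other genes with at least 10 CPM, those whose deviations were most like the mean of the 6 were ACLB-2 (r = 0.931), FLK (0.927), P40 (0.921), AT1G54220 and TIM50 (0.91 each), AT1G10820 (0.909), AGO1 (0.903), ULP1D (0.893), HYL1 (0.883) and PEX14 (0.882). None is on a wall or xylem list, values over the 10788 genes reached from -0.931 to 0.931, and the 45 pathway genes among them had a median of 0.0282.

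The partners of these genes in the same pathways were taken from 9 lists of 125 genes. Of these, 55 passed the filter, and 13 rose and 30 fell with age in wild type, with a median log2 fold change of -0.67, against 36.1% and 34.5% of all tested genes and a median of 0.07. In the mutant 9 rose and 31 fell, with a median of -0.70, against 35.4% and 34.6% and a median of 0.06. These shares of all tested genes apply beside the age counts of each list below. Between the genotypes, 3.16% of all tested genes were called at 25 DAS. At 45 DAS 732 of 14503 were higher and 708 lower in the mutant. The level of a list summed over its genes is given relative to young wild type.

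**Figure D3:**
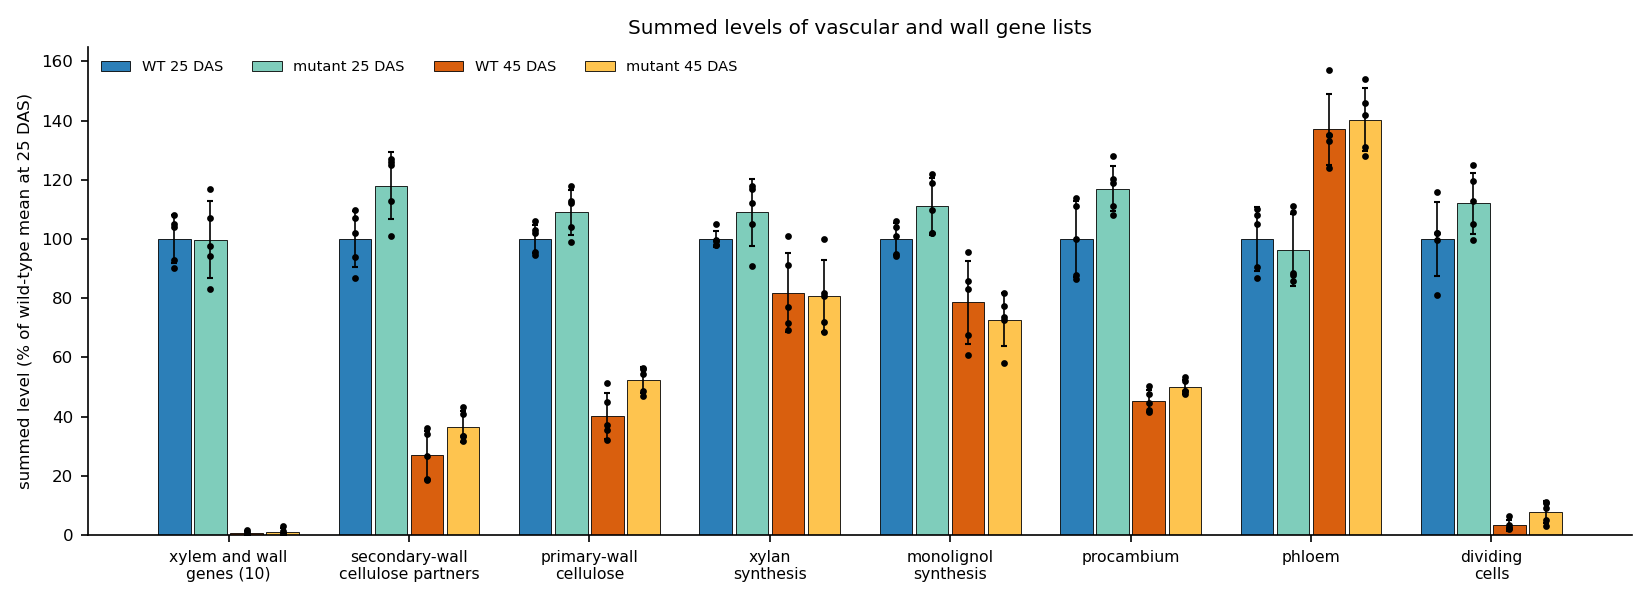
Summed level of each gene list as a percentage of the wild-type mean at 25 days after sowing; bars are group means, points are the 5 libraries and error bars are SDs. The 10 xylem and wall genes kept 0.713% in wild type at 45 days and 1.13% in the mutant. Dividing-cell markers kept 3.35% and 7.81%, procambium markers 45.2% and 50.1%, phloem markers 137% and 140.3%, and the cellulose partners 26.9% and 36.6%. Of the partners' 29.5 CPM in older wild type, FRA1 held 23.4 CPM and MIDD1 5.01 CPM, while TED6, TED7 and CTL2 kept 1.26%, 1.59% and 0.931% of their young level. Among the phloem markers in older wild type, PP2-A1 stood at 241% of its young level, while SEOR1 and SEOR2 kept 3.75% and 3.28%.

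Of the 4 tested partners of the secondary-wall complex, 3 fell in both genotypes. TED6, a membrane protein that binds CESA7, stood at 50.5 ± 9.27 CPM in young and 0.636 ± 1.06 CPM in older wild type, a log2 fold change of -6.01 (adjusted p 4.4e-13, edgeR), and fell by 5.40 in the mutant. Its relative TED7 fell by 5.34 in wild type and had a log2 fold change of -6.81 in the mutant. CTL2, a chitinase-like protein of secondary walls, had 109 counts in young and 1 in older wild type, and fell by 5.92. FRA1, a kinesin needed for wall deposition, was the tested partner not called, with 24.6 ± 5.45 CPM in young and 23.4 ± 7.19 CPM in older wild type. MIDD1, under the filter, had 27 counts in young and 29 in older wild type, and 32 and 36 in the mutant. In the primary-wall list all 9 tested genes fell in both genotypes. CESA3, part of the primary-wall complex, fell by 0.49 in wild type and 0.34 in the mutant. CTL1, the counterpart of CTL2 in primary walls, fell by 2.23, the furthest of the 9 in wild type, and by 1.95 in the mutant. CESA5 fell by 1.56 and 1.53 and CESA6 by 0.92 and 0.96. At 45 DAS 4 of these 9 genes were higher in the mutant, against 732 of all 14503 tested genes. They were KOR1, an endoglucanase, by 0.52 (adjusted p 0.0064, edgeR), CESA5 by 0.44, CESA1 by 0.42 and COB by 0.38. KOR1 had 131 ± 26 CPM in older wild type against 187 ± 11.5 CPM, without overlap. The calls of CESA1 and COB were lost when replicate 2, 3 or 5 of wild type or 1, 2 or 4 of the mutant was left out, and that of COB also without mutant replicate 3 (log2 fold change 0.33 to 0.43). That of CESA5 was lost without replicate 2, 3 or 4 of wild type or 1, 3, 4 or 5 of the mutant (0.36 to 0.48), and without any of 4 libraries at 25 DAS. It was also lost with DESeq2 (adjusted p 0.0857), limma voom (0.112), DESeq2 size factors within edgeR (0.057), all genes with at least 1 count (0.0717) and thinned counts (0.152). Thinned counts also ended the calls of CESA1 (adjusted p 0.088) and COB (0.0879), and including all genes with at least 1 count ended that of COB (0.0781). None of the 4 genes passed in a fit of only the 2 older groups.

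Of the 12 tested xylan genes, 3 rose and 4 fell in each genotype. Of all tested genes, 36.1% rose and 34.5% fell in wild type and 35.4% and 34.6% in the mutant, so nothing is read from these counts. TBL29, which acetylates xylan and whose loss collapses xylem vessels, gave 65 counts in each young group and then 0 in wild type and 1 in the mutant. RWA4 and RWA2, also of xylan acetylation, fell by 2.35 and 1.04 in wild type and by 2.19 and 1.05 in the mutant. IRX8, which makes the end sequence of xylan, stayed under the filter, with 21 and 15 counts in young and 1 and 2 in older wild type and mutant. IRX7, another gene of that end sequence, went the opposite way. Its level in wild type was 3.26, 0.551, 0.81, 2.09 and 1.23 CPM at 25 DAS and 13.9, 19.7, 28.9, 22.9 and 42.7 CPM at 45 DAS, every older library above every younger one. The log2 fold change was 3.92 (adjusted p 9.58e-09) in wild type and 2.49 (adjusted p 0.000149) in the mutant. At 45 DAS IRX7 was lower in the mutant by 1.63 on the log2 scale (adjusted p 0.00174, edgeR), with 5.13 to 11.9 CPM. IRX7 shares 49 bases with a locus on the opposite strand that had 79 counts over all libraries, against 233 for IRX7. F8H, on the same xylan list, had 29 counts in young and 1 in older wild type, and 35 and 1 in the mutant. IRX14, of the xylan backbone, rose by 0.67 and 0.63, the former call being lost on thinned counts (0.66, adjusted p 0.0672). IRX9-L, a relative of IRX9 known from primary walls, was the sole pathway gene called between the genotypes at 25 DAS. It stood at 32, 21.5, 27.6, 24.3 and 18.5 CPM in wild type and 14.9, 15.3, 14.5, 16.3 and 16.4 CPM in the mutant, with no overlap and a log2 fold change of -0.68 (adjusted p 0.0293). Leaving out replicate 1, 3 or 4 of wild type, or 1, 2 or 3 of the mutant, ended that call (-0.57 to -0.69).

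Of the genes that make monolignols, 3 of 14 tested rose and 8 fell in wild type, and 1 rose and 9 fell in the mutant. The 2 cinnamyl alcohol dehydrogenases of the final step, the reduction to alcohols, went opposite ways. CAD4 fell from 105 ± 14.2 to 19.8 ± 5.08 CPM in wild type (-2.43, adjusted p 1.24e-12), and from 113 ± 14.6 to 16.8 ± 3.78 CPM in the mutant. CAD5 rose from 13.5 ± 2.4 to 118 ± 29.8 CPM in wild type (3.15, adjusted p 1.02e-13) and from 14.6 ± 2.38 to 93.5 ± 14.3 CPM in the mutant. HCT, which leads into the guaiacyl and syringyl branches, fell by 1.50 in wild type and 1.90 in the mutant. Monolignols also serve soluble phenolics outside the xylem, and the counts do not divide those uses.

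Among the oxidases, LAC11, the third laccase known to act with LAC4 and LAC17, matched their course. It gave 126 counts in young wild type and none in older wild type, at least 35.8-fold lower, and 113 and 2 counts in the mutant. The other 14 laccases together stood at 14.6 ± 1.17 CPM in young and 4.27 ± 1.86 CPM in older wild type, and 5 laccases had no count in any library. PRX52, a peroxidase of syringyl lignin, had no count in the 10 young libraries. At 45 DAS it gave 12.2, 10.3, 4.81, 3.53 and 22.1 CPM in wild type and 2.74, 8.55, 5.82, 5.34 and 2.64 CPM in the mutant, and it rose in both (adjusted p 1.07e-05 and 0.000268). PRX71 fell by 1.71 in wild type (adjusted p 0.0111). DIR6, a dirigent protein that guides the formation of pinoresinol, the substrate of PRR1, was under the filter. It had 48 counts in young and 1 in older wild type, and 68 and 1 in the mutant, ratios of 40.9 (7 to 1648) and 82.8 (14.4 to 3318).

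Of the 32 regulators listed, 5 passed the filter, and 3 rose and 1 fell in wild type while 3 rose and 2 fell in the mutant. The vessel switches VND1 to VND7, of which none passed the filter, summed to 24, 32, 18, 20 and 20 counts in young wild type and 2, 2, 0, 1 and 2 in older wild type. In the mutant they summed to 121 counts at 25 DAS and 17 at 45 DAS. MYB46 and MYB83 together had 24 and 27 counts in young and 2 and 0 in older wild type and mutant. The fibre switches NST1, NST2 and SND1 had 1 count in all 20 libraries together. Not all regulators with few counts were lower at 45 DAS. MYB85 had 7 counts in young and 14 in older wild type, and 19 and 21 in the mutant. SND3 had 8 and 9 counts in wild type and 7 and 1 in the mutant. VND3 had 9 and 3 counts in wild type and 8 and 10 in the mutant. MYB20, a MYB factor of lignin synthesis, fell from 24.5 ± 8.55 to 1.3 ± 1.26 CPM in wild type (-4.11, adjusted p 6.68e-09) and from 35.1 ± 7.24 to 2.95 ± 1.61 CPM in the mutant (-3.53). MYB32, which represses lignin genes, rose by 1.66 and 1.10, the latter call being lost without mutant replicate 1 at 45 DAS (0.85). Its relative MYB4 fell by 0.93 in the mutant. In wild type MYB4 had 67 counts in young and 27 in older leaves, a change that was not called. The mutant call was lost without replicate 1, 2 or 3 of the mutant at 25 DAS or 2, 3, 4 or 5 of it at 45 DAS. It was also lost without replicate 2 of young wild type (-0.98 to -0.74 over these fits). Upper-quartile scaling (adjusted p 0.0543, edgeR), all genes with at least 1 count (0.0552, edgeR) and limma voom (0.114) ended it too.

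XND1 and VNI2 are NAC proteins that restrain the programme, and VNI2 is also known to delay leaf senescence. XND1 stood at 0.653, 2.2, 0, 1.39 and 1.23 CPM in young wild type and at 32.6, 36.3, 31.3, 22.9 and 59.7 CPM in older wild type. In the mutant it stood at 4.14, 2.86, 1.81, 3.39 and 3.16 CPM and then at 13.2, 18.8, 22.4, 15.4 and 19.8 CPM. The older wild-type libraries lay above all others, and the older mutant libraries between them and the young. XND1 rose by 4.88 in wild type (adjusted p 7.19e-12) and 2.46 in the mutant (adjusted p 3.64e-07), and at 45 DAS it was lower in the mutant by 1.07 on the log2 scale (adjusted p 0.00352). The difference between its age changes was -2.42 (adjusted p 0.0278, edgeR). It rests on few counts at 25 DAS, 8 in wild type and 20 in the mutant, and leaving out young replicate 1 or 3 of wild type, or 1 or 4 of the mutant, ended the call (-2.15 to -2.38). So did counts thinned to the smallest library (adjusted p 0.247). VNI2 rose by 1.51 in wild type and 1.19 in the mutant, from 109 ± 18.3 to 308 ± 58.9 CPM and from 96.7 ± 13 to 219.5 ± 54 CPM. VNI2 overlaps a locus on the opposite strand that was not among the counted loci.

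**Figure D4:**
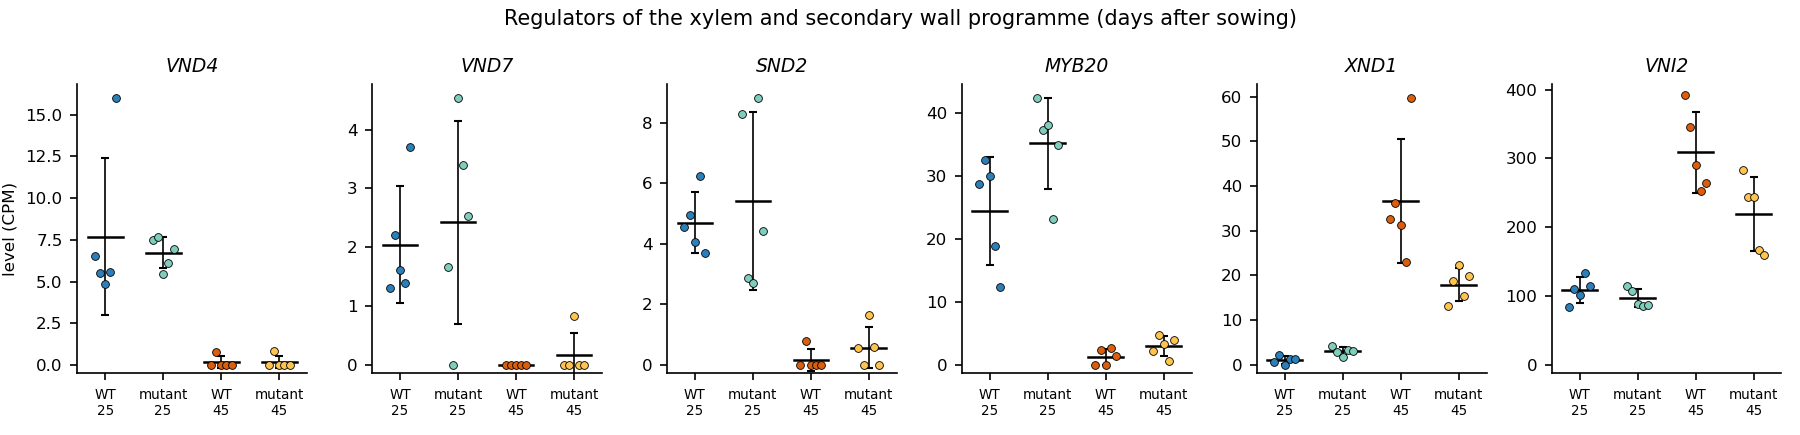
Levels (CPM, linear axes from 0) of 6 regulators in each library of wild type (WT) and mutant at 25 and 45 days after sowing; lines are group means and error bars SDs (n = 5). The activators drawn, VND4, VND7, SND2 and MYB20, lie near 0 at 45 days. XND1 and VNI2, which restrain the programme, are higher at 45 days, XND1 more so in wild type (36.6 CPM) than in the mutant (17.9 CPM). Listed regulators not drawn did not all fall, such as MYB85 with 7 counts in young and 14 in older wild type.

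Of the 7 tested genes of the xylem cell death list, 3 rose and 3 fell in wild type, 1 rose and 3 fell in the mutant, and 4 were lower in the mutant at 45 DAS. Of all 14503 tested genes, 36.1% rose and 34.5% fell in wild type, and 35.4% rose and 34.6% fell in the mutant. At 45 DAS 708 of them were lower in the mutant. BFN1, a nuclease that degrades nucleic acids in dying vessels and in senescing leaves, gave 101, 56.8, 4.81, 6.18 and 190.0 CPM in older wild type and 0.548, 0.855, 0.831, 2.37 and 3.97 CPM in the older mutant. The groups did not overlap, yet wild-type replicates 3 and 4 lay close to the mutant. The log2 fold change was -5.61 (adjusted p 0.00134, edgeR), and between -5.89 and -4.87 with any 1 library left out. The ribonuclease RNS3 gave 15.5, 3.94, 0, 1.76 and 6.63 CPM in older wild type and at most 1.32 CPM in the older mutant (-3.04, adjusted p 0.00553). That call was lost in a limma voom fit (-2.17, adjusted p 0.0539). PASPA3, an aspartic protease, was lower by 1.67 (adjusted p 0.0212) and shares 214 bases with AT4G04470 on the opposite strand. SCPL48, a serine carboxypeptidase, was lower by 0.80 (adjusted p 0.0141). Wild-type replicate 5 gave 38.3 CPM of PASPA3 and 240.1 CPM of SCPL48. Without it the differences were -0.72 (adjusted p 0.29) and -0.41 (adjusted p 0.0679). The PASPA3 call was also lost without mutant replicate 2 or 4 (-1.57 and -1.55) and in a limma voom fit (-1.25, adjusted p 0.0608), and that of SCPL48 in a fit of only the 2 older groups (-0.79, adjusted p 0.097).

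MC9, a metacaspase of vessel cell clearance, and DMP4, a membrane protein of dying cells, were under the filter and untested. DMP4 gave 48.9, 7.89, 0, 1.76 and 28 CPM in older wild type and 1.1 CPM or less in the older mutant. MC9 gave 8.97, 4.73, 1.2, 0 and 19.9 CPM in older wild type and 1.1 CPM or less in the older mutant. For both, wild-type replicates 1 and 5 were highest and 3 and 4 lowest, as for BFN1. The age change of RNS3 and of SCPL48 differed between the genotypes (-2.83, adjusted p 0.047, and -1.26, adjusted p 0.0268, edgeR), but most alternatives ended the former call and several the latter. ACL5, a thermospermine synthase that keeps vessels from dying early, fell by 2.93 in wild type and 1.73 in the mutant. In the mutant XSP1, a xylem serine protease, fell by 2.63, from 99 to 19 counts. RNS3, DMP4, MC9, XSP1, BFN1 and ACL5 each had every young mutant library above every older one. They kept 5.59%, 6.06%, 11%, 14.1%, 23.8% and 29.9% of the young mean CPM. Among loci with at least 3 CPM in the mutant at 25 DAS, 32.9% of 15345 had no such overlap either.

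**Figure D5:**
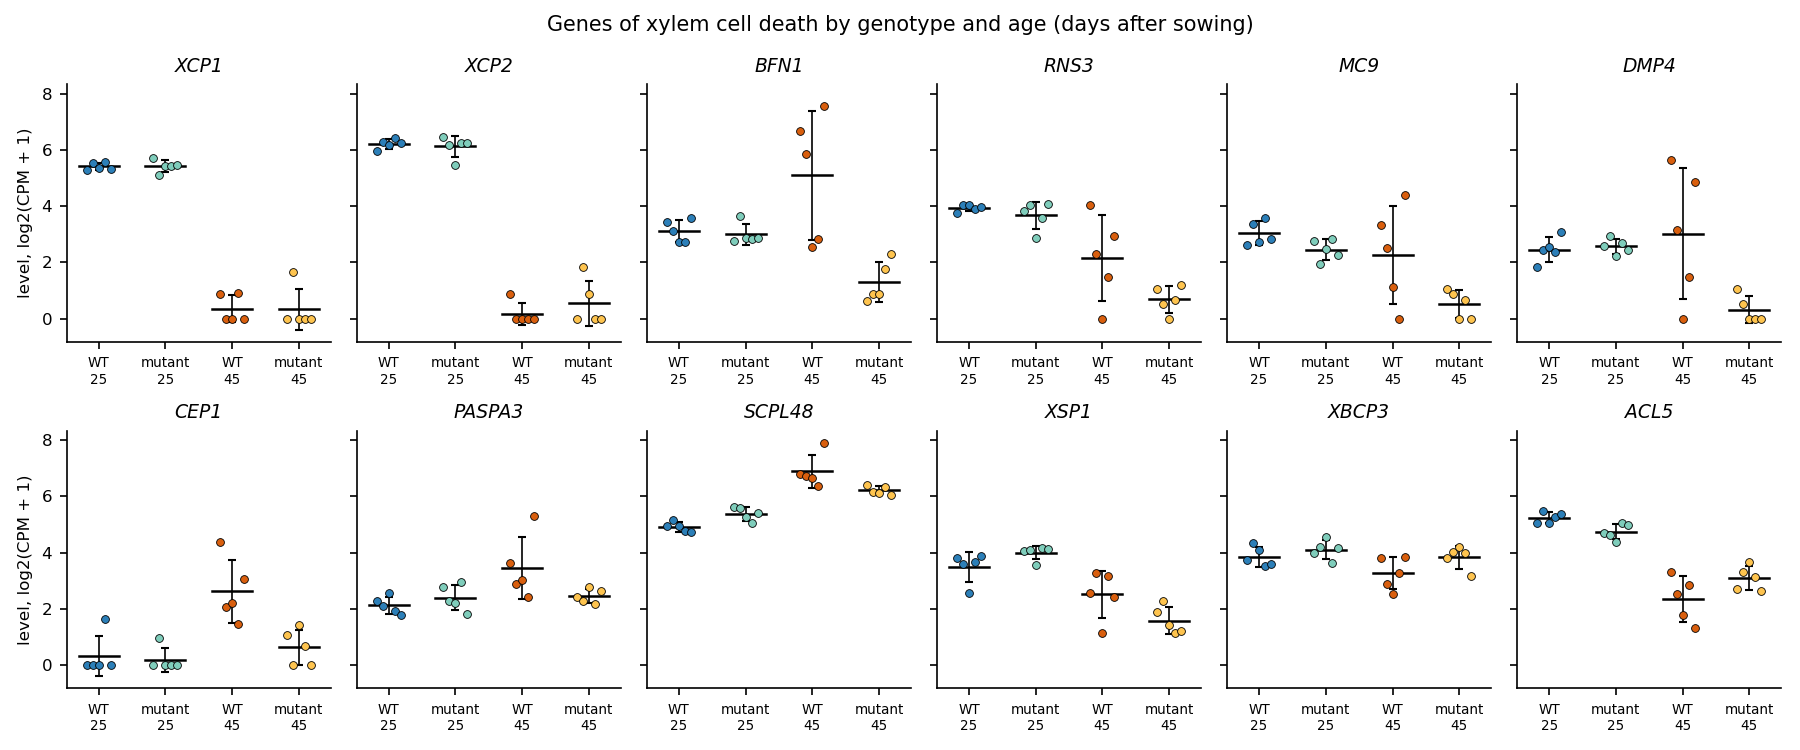
Levels of xylem cell death genes on the log2(CPM + 1) scale in each library of wild type (WT) and mutant at 25 and 45 days after sowing; lines are means and error bars SDs of the log2 values (n = 5). XCP1 and XCP2 lie near 0 in both older groups, while BFN1, DMP4 and MC9 are spread widely in older wild type and low in the older mutant.

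Markers of other leaf cells were set beside the xylem genes. Of 9 tested genes of the procambium, the stem cells from which xylem forms, 6 fell in each genotype and 1 rose in wild type. PXY, the receptor of those cells, fell by 3.70 in wild type and 2.11 in the mutant, and WOX4 had no count in older wild type. The summed procambium level ran from 141 to 208 CPM in the young and from 67.8 to 86.7 CPM in the older libraries. Of 8 tested phloem genes, 2 fell in each genotype, SEOR1 and SEOR2 of the sieve element, by 4.73 and 4.94 in wild type. Another 4 rose in each, and the summed phloem level ran from 538 to 695 CPM in the young and from 782 to 986 CPM in the older libraries. The 5 phloem genes under the filter together had 117 counts in young and 10 in older wild type, and 114 and 18 in the mutant. The sum thus follows the phloem genes of high level and not the whole list. All 4 tested genes of dividing cells fell, with sums of 58.1 to 89.6 CPM in the young and 1.47 to 7.93 CPM in the older libraries and KN, PCNA1, AN3, CYCB1;1 and CDKB1;1 without a count in older wild type. All 4 mesophyll genes fell as well, their sum from between 55239 and 62753 CPM to between 1396 and 6312 CPM. Summed epidermis markers ran from 465 to 596 CPM in the young and from 71.4 to 263 CPM in the older libraries. Guard-cell markers ran from 90.4 to 119 CPM and from 37.3 to 56 CPM. The part of these changes in the lower level of the xylem genes was not tested.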

How the data were processed

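Leaf RNA of 20 libraries was measured by 3' RNA-seq. The authors deposited 1 file per library with raw counts of 37336 loci, as whole numbers and not normalized. STAR 2.7.8a and the TAIR10 build are named in the submitters' processing notes. The counting tool, annotation, use of strand and collapse of molecular identifiers are not given in the sources used here. Without strand, reads of overlapping loci cannot be told apart.

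Groups and replicate numbers come from the sample titles. The genes, lists and tests were chosen with earlier results of these data known. All 189 listed loci were found in the RefSeq annotation of TAIR10.1, which gave symbols, overlaps and the upstream windows. Its genome has a newer name than the authors' build, and the count files hold no coordinates.

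Of these, 14503 loci passed filterByExpr by group. They were scaled with TMM factors (trimmed mean of M values) and tested in edgeR 4.0.16 (R 4.3.3) with the robust quasi-likelihood F-test, in 1 model of all 20 libraries and 4 group means. p-values were adjusted over all tested genes by the Benjamini-Hochberg method, with a threshold of 0.05. Fold changes are log2 values of mutant against wild type or of 45 against 25 DAS. The interaction is the age change in the mutant minus that in wild type. The model was tested on simulated data with 200 changed genes. For a gene without a count, the upper limit is 3 counts, or 1.28 to 3.97 CPM in a single library. Ratios of small counts have 95% intervals from the exact binomial distribution and are scaled by the TMM library sizes.

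All 10 genes are named. Of each pathway list and comparison, up to 3 genes past the threshold are named by smallest p, with others chosen after their values were seen (FRA1, MIDD1, CESA3, CESA5, CESA6, IRX8, IRX14, F8H, PASPA3, DMP4, MC9, MYB4, MYB32, MYB85, SND3, the VND and fibre regulators and the cell type markers). The 10 genes with the most similar deviations were named by Pearson's r over the young libraries (log2 CPM, prior count 2).

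Alternatives were DESeq2 size factors and upper-quartile scaling within edgeR, the DESeq2 1.42.0 Wald test, limma 3.58.1 voom with a variance per group, no filter beyond 1 count, a filter at a mean of 5 CPM, a fit of only the 2 groups compared, counts thinned to the smallest library, the replicate number as a block, and omission of single libraries. For the summed CPM, plain library totals were tried, and the other scalings and left-out libraries were added after seeing the data. Python 3.11.15, NumPy 2.4.6, pandas 2.3.3, SciPy 1.17.1 and matplotlib 3.10.9 served for tables and plots.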

Additional observations from a re-analysis of the deposited data

Results flagged for a closer look

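In 8 of 131 groups of 5 libraries checked, the highest or lowest library stood apart from the other 4, where chance alone would flag about 1 in 20 groups, or 6.55. XCP1 had 2.14 CPM in mutant replicate 2 at 45 DAS and 0 in the other 4. IRX9 had 11.1 CPM in wild-type replicate 5 at 25 DAS, against 2.78 to 4.96 CPM, and 5.8 CPM in mutant replicate 1 at 25 DAS, against 1.9 to 2.86 CPM. BFN1 had 11.5 CPM in mutant replicate 2 at 25 DAS, against 5.8 to 6.35 CPM. SCPL48 had 240.1 CPM in wild-type replicate 5 at 45 DAS, against 82.1 to 110.0 CPM. CESA5 had 122 CPM in wild-type replicate 1 at 25 DAS, against 99.4 to 102 CPM. CAD4 had 80.2 CPM in wild-type replicate 5 at 25 DAS, against 105 to 115 CPM. XSP1 had 10.9 CPM in mutant replicate 3 at 25 DAS, against 15.7 to 17 CPM.

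The age change differed between the genotypes for 3 of 55 tested pathway genes in edgeR's interaction test, against 3.21% of all 14503 tested genes. It was smaller in the mutant for XND1 by 2.42 on the log2 scale, a difference of -2.42 (adjusted p 0.0278). It was lower for RNS3 by a difference of -2.83 (adjusted p 0.047) and for SCPL48 by a difference of -1.26 (adjusted p 0.0268).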

How the results depend on the processing

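None of the 10 genes was called between the genotypes under any alternative run. Their differences at 25 DAS were near 0, and some signs turned: XCP1 with all genes of at least 1 count (-0.00) and with only the 2 groups in the fit (-0.02), PRR1 with DESeq2 size factors (0.00). With a library left out, XCP1 ranged from -0.05 to 0.09, XCP2 from -0.14 to 0.07, LAC4 from -0.29 to 0.22 and PRR1 from -0.06 to 0.10. Deviations of same-numbered libraries of the 2 genotypes correlated at -0.171 to 0.364, and at 0.0176 to 0.364 at 45 DAS. Differently numbered libraries were not compared, so these values do not decide whether replicate numbers pair libraries. With a replicate block LAC4 was at -0.04, the interaction of RNS3 missed the threshold (-2.73, adjusted p 0.0513), as did CESA5 at 45 DAS (0.44, adjusted p 0.057). On plain library totals the summed levels at 25 DAS were 179.5 CPM (wild type) and 176 CPM (mutant). With a library left out they were 222 to 233 and 217 to 236 CPM, and at 45 DAS 1.01 to 2.03 and 1.39 to 3.2 CPM.

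Counts of pathway genes moved more. At 25 DAS none was higher in the mutant, but 3 were with only the 2 groups, 1 by DESeq2, 2 by voom and 0 to 1 with a library left out. The 1 lower gene became 0 on thinned counts, 2 with only the 2 groups and 0 to 1. At 45 DAS the 4 higher genes became 2 with all genes of at least 1 count, 2 on thinned counts, 0 with only the 2 groups and 1 to 10 with a library left out (10 without wild-type replicate 1). The 6 lower genes became 10 with all genes of at least 1 count, 2 with only the 2 groups and 4 to 9. For the interaction, the 0 higher genes became 1 by DESeq2 and 0 to 4 (4 without wild-type replicate 1 at 45 DAS), and the 3 lower genes 5 with at least 5 CPM, 0 on thinned counts, 5 by DESeq2 and 1 to 6. With age, the 13 genes that rose in wild type became 7 on thinned counts and 8 with only the 2 groups, and the 30 that fell became 56 with all genes of at least 1 count, which tests more genes. In the mutant the 31 that fell became 62 in that fit and 20 on thinned counts. The cause of the other moves was not tested. RNS3's interaction passed in 5 of 27 alternatives, SCPL48's in 21 of 28 and XND1's in 23 of 28. Depth limits comparisons at 45 DAS, where most of the 10 genes lie under 3 counts per group.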
